A study of Mus musculus with 12 samples.

Results

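A total of 109 of 24772 retinal cells with at least 200 detected genes were gathered as macrophages of the mouse retina. A cell was taken when at least 2 of PF4, LYZ2, CD74, MRC1, F13A1 and H2-AA, and at least 1 of CTSS, C1QB, C1QA, CSF1R and TYROBP, had a value above 0. For 61 of them the label rests on PF4, MRC1 or F13A1, which belong to the rule. Of these 61, 52 also had at least 1 of MS4A7, CD163, FOLR2, CBR2 and STAB1, border-macrophage genes that the rule did not use. At least 1 of the microglial genes P2RY12, TMEM119, SALL1 and SIGLECH was found in 25 of the 61. The other 48 carried CD74 with LYZ2 or H2-AA, and none of PF4, MRC1 and F13A1. The data went against the label for part of them: 30 of the 48 had at least 1 of those microglial genes, and 8 at least 1 of those border-macrophage genes. These 48 were mixed: 9 carried H2-AA, with 7 to 87 CD74 UMIs per cell. Of these 9, 1 had at least 1 of the 4 microglial genes, 0 had P2RY12 or TMEM119, and 1 had a border-macrophage gene. The other 39 carried LYZ2 and CD74, 35 of them with 1 to 4 CD74 UMIs. Of these 39, 29 had at least 1 of the 4 microglial genes, 24 had P2RY12 or TMEM119, and 7 had a border-macrophage gene. The whole set is therefore called the CD74/LYZ2/PF4 cells here, after its leading genes. The comparison set, called other myeloid cells, was 305 cells with at least 2 of CTSS, C1QB, C1QA, CSF1R and TYROBP above 0 that were not in the set.

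The retina holds several kinds of resident phagocyte. Microglia lie within the neural layers, while border macrophages sit along vessels, at the hyaloid and near the ciliary body and carry the mannose receptor MRC1 and scavenger receptors. In oxygen-induced retinopathy (OIR), high oxygen halts vessel growth in the pup, and after return to room air the avascular retina becomes hypoxic and abnormal vessel tufts form, around which myeloid cells gather. Monocyte-derived macrophages can enter the tissue in disease and share many genes with both resident kinds.

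Cells of C57B6 mouse retina were profiled by Drop-seq, a droplet method that counts 3′ ends of transcripts as unique molecular identifiers (UMIs). OIR pups were kept with a foster mother, breathed 75% oxygen between postnatal days 7 and 12 and were then in normal air; normoxic (NORM) pups stayed in normal air with their own mother. Retinas were taken at postnatal day 14 (P14) or 17 (P17), either after rod depletion or whole. The 12 libraries were 8 of OIR (at P14, 2 rod-depleted and 3 whole; at P17, 1 rod-depleted and 2 whole) and 4 of NORM, 1 for each age and fraction. Foster care and oxygen differed together, so their effects cannot be told apart. Nothing in the labels tells whether any 2 libraries stem from different animals or pools. Each p-value for a share therefore reflects only how far the libraries scatter, and that scatter may be technical. The p-values for gene levels also rest on variance borrowed from genes of similar level. They can be small where a gene's own libraries scatter widely.

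The libraries held 569 to 3409 cells with at least 200 genes. The 109 cells had a median of 1498 UMIs, against 1057 in the other myeloid cells. In whole retina at P17 depth differed with oxygen: the set's median was 5226 and 6732 UMIs in the OIR libraries, against 305 UMIs in the NORM library, which had 2 such cells. Across the 12 libraries 14 cell barcodes occurred in more than 1 library, none of them belonging to the set. The columns of the whole-retina NORM library at P14 carry another replicate number than the label, which makes that match less sure; it holds 2 of the 109 cells.

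The members were chosen by whether these 11 genes had a value above 0, so the rule genes describe the set and carry no test. Lysozyme (LYZ2) was detected in 98 of 109 cells, the MHC class II invariant chain CD74 in 70, the chemokine PF4 in 56, the mannose receptor MRC1 in 46, coagulation factor XIII subunit F13A1 in 36 and the class II alpha chain H2-AA in 12. Just inside the threshold were 55 cells with exactly 2 of these genes, of which 39 had LYZ2 and CD74. Another 17 cells had 3 of them, 28 had 4 and 9 had 5. Just outside were 200 cells with 1 of the 6 genes and a myeloid gene, 177 of them with LYZ2, and 9 cells with at least 2 of the 6 genes and no myeloid gene. In 23758 cells with no myeloid gene, which had a median of 1043 UMIs, PF4 was detected in 0.130%, LYZ2 in 0.358% and CD74 in 0.194%, which is the background for these genes.

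**Figure D1:**
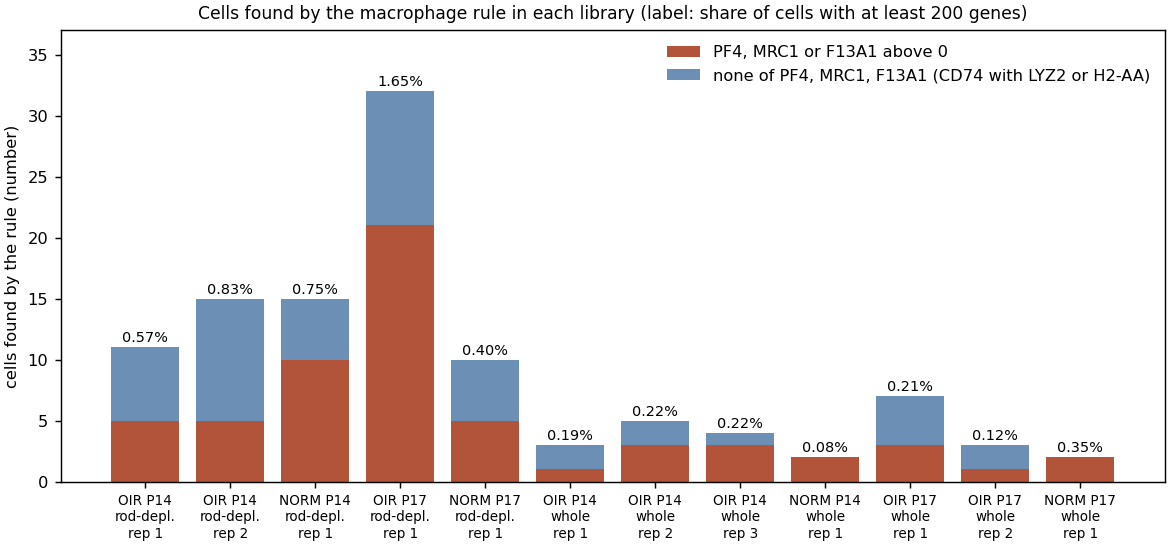
Number of CD74/LYZ2/PF4 cells in each of the 12 libraries, split into those with PF4, MRC1 or F13A1 (red) and those without (blue); the label gives the set's share of cells with at least 200 genes. The rod-depleted OIR library at P17 holds 32 cells and the highest share, and the whole-retina libraries hold 2 to 7 cells each.

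The 61 cells with PF4, MRC1 or F13A1 carried further border-macrophage genes that the rule did not use. MS4A7, a membrane protein of border macrophages, was detected in 70.5% of them (95% exact binomial interval 57.4% to 81.5%), against 6.25% of the 48 cells without (1.31% to 17.2%) and 1.97% of the other myeloid cells (0.725% to 4.23%). The scavenger receptor STAB1 was found in 70.5%, 10.4% and 9.51% of these 3 sets in the same order. The haemoglobin scavenger receptor CD163 was found in 16 of the 61 cells, in 0 of the 48 cells, which allows a share of cells with a UMI of up to 6.25% (exact binomial bound 7.40%), and in 0 of the 305 other myeloid cells, which allows up to 0.984% (exact bound 1.20%). The first limit of each pair is 3 cells of the total, and cells that express the gene without a captured UMI are not limited by it. The fungal-glycan receptor CLEC4N was detected in 47.5% of the 61 cells, 4.17% of the 48 cells and 1.31% of the other myeloid cells. The hyaluronan receptor LYVE1 was detected in 31.1% of the 61 cells, in none of the 48 and in 1.97% of the other myeloid cells, but also in 7.18% of cells with no myeloid gene. Intervals and limits cover counting error only.

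Several microglial genes ran the other way, and others did not. The ADP receptor P2RY12 was detected in 24.6% of the 61 cells (14.5% to 37.3%), against 45.8% of the 48 cells (31.4% to 60.8%) and 53.1% of the other myeloid cells (47.3% to 58.8%). TMEM119, a microglial surface protein, was found in 3.28% of the 61 cells, 27.1% of the 48 cells and 28.9% of the other myeloid cells. The transcription factor SALL1, which marks microglia, was found in 1 of the 61 cells, 7 of the 48 cells and 33 of the 305 other myeloid cells. OLFML3 and the lectin SIGLECH were detected in 14.8% and 16.4% of the 61 cells, 62.5% and 50.0% of the 48 cells, and 49.5% and 45.9% of the other myeloid cells. The fractalkine receptor CX3CR1 did not separate the sets, at 73.8% of the 61 cells, 62.5% of the 48 and 62.3% of the other myeloid cells. Nor did FCRLS, at 65.6%, 64.6% and 50.8% of these sets in the same order, or the purinergic receptor P2RY13, at 19.7%, 22.9% and 24.9%. At least 1 of MS4A7, CD163, FOLR2, CBR2 and STAB1 and at least 1 of P2RY12, TMEM119, SALL1 and SIGLECH occurred together in 21 of the 61 cells and in 5 of the 48.

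The contrast between the 61 and the 48 cells held at matched depth for MS4A7 and P2RY12. After each cell was thinned to 500 UMIs, which left 57, 46 and 255 cells, MS4A7 was detected in 52.6% of cells with PF4, MRC1 or F13A1, 4.35% of those without and 1.18% of other myeloid cells. P2RY12 was then detected in 3.51%, 26.1% and 38.0% of the 3 sets in the same order. The median depth before thinning was 1490 UMIs in the 61 cells, 1575.5 in the 48 and 1057 in the other myeloid cells. Since the split used PF4, MRC1 and F13A1 in these same cells, the shares are a description with no test.

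**Figure D2:**
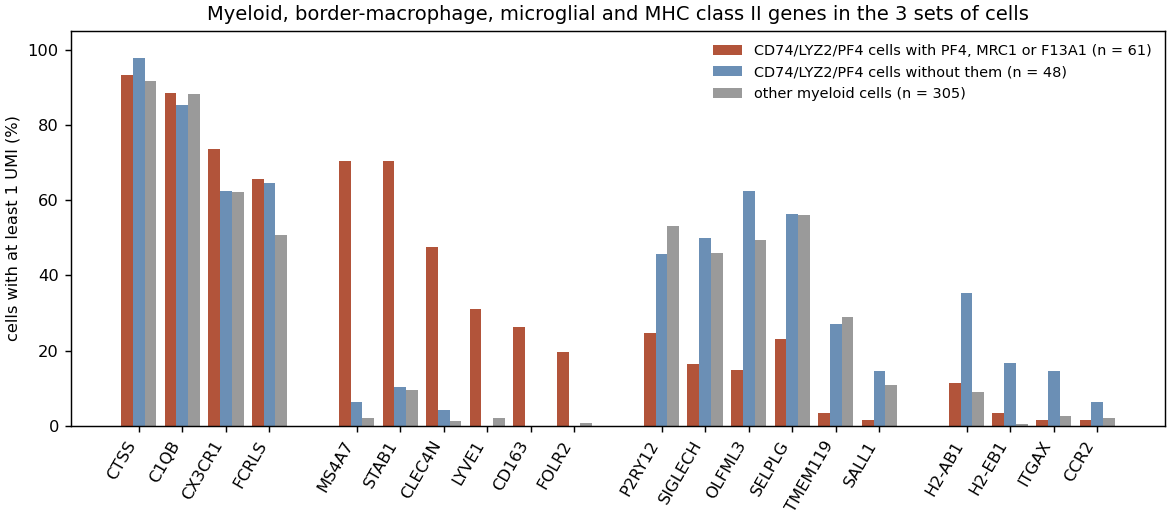
Share of cells with at least 1 UMI (%) of myeloid, border-macrophage, microglial and class II genes in CD74/LYZ2/PF4 cells with PF4, MRC1 or F13A1 (red), in those without (blue) and in other myeloid cells (grey). MS4A7 and STAB1 are at 70.5% in red, while P2RY12, SIGLECH and OLFML3 in the blue bars stand near the grey ones.

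Among the 48 cells without PF4, MRC1 and F13A1, class II genes outside the rule were more frequent than in either other set. Through the rule CD74 was in all 48 of these cells and in 8 of the 305 other myeloid cells. The class II shares therefore follow in part from the rule and are a description with no test. The class II beta chain H2-AB1 was detected in 35.4% of them, against 11.5% of the 61 cells with and 8.85% of other myeloid cells, and H2-EB1 in 16.7%, 3.28% and 0.328%. The integrin ITGAX, common on dendritic cells, was found in 7 of the 48 cells, 1 of the 61 and 8 of the 305 other myeloid cells. Of the class II and dendritic list, FLT3, XCR1, CLEC9A, CCR7 and the class II regulator CIITA had no UMI in 109 cells, which allows a share of cells with a UMI of up to 2.75%. That limit is over the whole set and says little of the 9 among the 48 cells that carried H2-AA. Cells that express these genes without a captured UMI are not limited by it. The monocyte receptor CCR2 was found in 4 cells and LY6C2 in 2. Of the B-cell list, the immunoglobulin heavy chain IGHM was found in 17 of the 109 cells and CD79B in 5, while CD79A and MS4A1 were at 0. IGHM was found in 9.84% of the 61 cells, 22.9% of the 48 and 15.7% of the other myeloid cells, against 0.0505% of cells with no myeloid gene. Of the 6 T-cell and NK-cell genes IL7R was found in 1 cell and the other 5, CD3E among them, in 0, as was the neutrophil gene S100A8.

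RNA of retinal neurons and glia was present in all these sets. At least 3 rod, bipolar, amacrine or Müller genes were detected in 37.6% of the 109 cells, against 45.9% of the other myeloid cells and 91.5% of cells with no myeloid gene. On the level scale (mean normalised value per 10000 UMIs in a library), the summed bipolar list of 7 genes ranged from 4.86 to 17.2 in the set and from 24.5 to 49.4 in the other myeloid cells of the same 5 libraries. Of 6617 genes compared, 439 were lower in the set than in the other myeloid cells in each of the 5 libraries. The 10 of these with the most negative log2 difference included the bipolar genes CABP5, GNG13 and PCP2 and the neural genes PROX1 and CAMK2B. Their part in the results below was not tested, beyond leaving out the cells with at least 3 such genes.

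Within the 5 libraries with at least 10 cells of the set, all rod-depleted, 83 of the 109 cells were found. On the level scale the highest mean was that of the lipid carrier APOE, at 211 to 569 per 10000 UMIs. The thymosin TMSB4X followed at 180 to 299, the protease inhibitor CST3 at 68.0 to 167, ACTB at 96.7 to 146, the ferritin chain FTH1 at 62.1 to 187 and B2M at 52.4 to 120. The class II gene CD74 spanned 19.7 to 97.4 and PF4 29.1 to 60.9. Of genes outside the rule, DAB2, an endocytic adaptor, had a level of 3.15 to 17.4 in the set and 0 to 0.384 in the other myeloid cells. CLEC4N had 2.38 to 6.50 and 0 to 0.148, and MS4A7 had 1.24 to 14.5 and 0 to 1.20. These differences follow in part from the rule and carry no test.

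The set's share of cells differed between fractions. It was 0.839% ± 0.482 in the 5 rod-depleted libraries and 0.198% ± 0.0854 in the 7 whole-retina libraries (SD), a difference larger than any other arrangement of the labels gave (exact permutation test within oxygen and age, two-sided, p = 0.00833, the smallest it can give; adjusted over 2 share tests 0.0167). Counted among myeloid cells only, the share was 26.2% in rod-depleted and 28.5% in whole-retina libraries (exact p = 0.642). With only the 61 cells that carry PF4, MRC1 or F13A1, the difference between fractions was 0.332 percentage points (exact p = 0.05).

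Between oxygen groups the shares overlapped. In rod-depleted retina the OIR libraries had 0.570% and 0.829% at P14 and 1.65% at P17 (95% exact interval 1.13% to 2.32%), against 0.746% at P14 and 0.401% at P17 in NORM. In whole retina the OIR libraries had 0.189%, 0.216% and 0.222% at P14 and 0.205% and 0.122% at P17, against 0.0821% at P14 and 0.351% at P17 in NORM. The mean was 0.500% ± 0.524 in OIR (SD, n = 8) and 0.395% ± 0.272 in NORM (SD, n = 4), with an exact permutation p of 0.861, where 0.0139 was the smallest it could give. When the P17 OIR library of rod-depleted retina was left out, the difference OIR minus NORM was -0.0591 percentage points, against 0.105 with it. Cells with PF4, MRC1 or F13A1 made up 42 of the 80 OIR cells of the set and 19 of the 29 NORM cells.

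Gene levels were compared between OIR and NORM over the 5 rod-depleted libraries (3 OIR, 2 NORM), on log2(level + 0.2) with limma and age as a covariate, with 2 residual degrees of freedom. With so few, limma moderates each gene's variance towards that of genes of similar level. Each SE and limma p-value therefore rests largely on other genes. Of 4693 genes tested, 2 rose in OIR, the secreted phosphoprotein SPP1 (osteopontin) and the metallothionein MT2, a metal-binding protein. They make up 0.0426% of the genes tested. No gene fell (0%), and 185 genes, or 3.94%, had an unadjusted limma p under 0.05. Every OIR library lay above both NORM libraries for 609 genes (13%) and below both for 547 genes (11.7%). A gene was tested only with a value above 0 in at least 3 of the 5 libraries. Genes at 0 in both NORM libraries, such as MMP12 and SLC16A3 below, could thus be tested. Genes at 0 in all 3 OIR libraries could not. These counts, and those of the gene lists below, depend in part on this filter.

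SPP1, at chr5:104435118-104441050 on the plus strand of GRCm38, had a level of 10.6 and 113.5 in the OIR libraries at P14 and 1.75 in the OIR library at P17, against 0.402 at P14 and 0 at P17 in NORM. The groups did not overlap, and the second P14 OIR library stood far above the rest. The log2 difference was 4.76 ± 0.82 (SE; limma adjusted p = 0.00208). On summed UMIs it had 314 of 106042 in OIR and 1 of 36283 in NORM, a ratio of 107 with a 95% counting interval of 19.1 to 4257. It was detected in 2 of 11, 6 of 15 and 3 of 32 cells in the OIR libraries, against 1 of 15 and 0 of 10 in NORM. In the 2 libraries whose names carry the same date, the P14 OIR replicate 2 and the P14 NORM library, the log2 difference was 7.56.

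SPP1 was detected in 11 of the 61 cells with PF4, MRC1 or F13A1 and in 8 of the 48 without. In the second P14 OIR library its level was 4.04 in the cells with those genes and 168 in those without. In the first P14 OIR library it was 4.74 in cells with them and 15.5 in cells without. The other myeloid cells showed a like pattern, with SPP1 at 17.4, 40.3 and 0.682 in the OIR libraries and 0 and 0.796 in the NORM libraries. The difference between the OIR effects in the 2 kinds of cells was 0.80 ± 0.98 (limma adjusted p = 0.995). In whole retina, which was not in the test, SPP1 was detected in 6 of 22 OIR cells and 1 of 4 NORM cells of the set. Without the second P14 OIR library the log2 difference was 3.73 and without the P14 NORM library 3.29, and neither passed the threshold.

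MT2, at chr8:94172664-94173568 on the plus strand of GRCm38, had a level of 11.2 and 11.7 in the P14 OIR libraries and 2.41 in the P17 OIR library, against 0.409 at P14 and 0 at P17 in NORM. The groups did not overlap, with a log2 difference of 4.02 ± 0.84 (SE; limma adjusted p = 0.0362) and 4.29 between the P14 pair of the same date. The level rested on few cells: MT2 was detected in 2 of 11, 2 of 15 and 8 of 32 OIR cells, and 1 cell gave 96.1%, 93.1% and 49.3% of it in these libraries. In NORM it was detected in 1 of 15 and 0 of 10 cells. The ratio of summed UMIs was 21.6, with a counting interval of 3.73 to 865. Leaving out the P14 NORM library or any 1 of the 3 OIR libraries ended the call, with log2 differences of 3.71 to 4.26.

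The neighbouring metallothionein MT1 was detected in more cells and did not pass. Its level was 32.7, 39.7 and 16.6 in the OIR libraries, against 7.40 and 9.36 in NORM, without overlap. The log2 difference was 1.64 ± 0.48 (SE; limma adjusted p = 0.657). It was detected in 5 of 11, 12 of 15 and 20 of 32 OIR cells, against 8 of 15 and 5 of 10 NORM cells.

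Windows upstream of an annotated start of both metallothionein genes are shown because metallothioneins are induced by metals through metal-response elements. The sequences are the 250 bases before the RefSeq gene start (GRCm38.p6), both on the plus strand, Mt2 at chr8:94172368-94172617 and Mt1 at chr8:94178839-94179088, 5′ to 3′. Capitals mark matches to the element's core, TGCACNC or TGCGCNC, on either strand.
Mt2: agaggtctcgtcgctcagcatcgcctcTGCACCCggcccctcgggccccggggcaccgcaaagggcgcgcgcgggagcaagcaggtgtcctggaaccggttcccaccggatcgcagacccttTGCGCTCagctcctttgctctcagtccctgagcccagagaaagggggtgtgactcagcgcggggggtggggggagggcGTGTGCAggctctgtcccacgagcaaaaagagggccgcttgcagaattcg
Mt1: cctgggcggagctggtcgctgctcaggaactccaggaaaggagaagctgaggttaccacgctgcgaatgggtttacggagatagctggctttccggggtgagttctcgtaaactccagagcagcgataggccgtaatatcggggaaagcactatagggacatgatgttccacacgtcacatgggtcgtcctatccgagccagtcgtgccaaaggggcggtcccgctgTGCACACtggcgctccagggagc
The Mt2 window held 3 matches, beginning 223, 128 and 50 bases before the start, and the Mt1 window held 1. The GENCODE starts differ from the RefSeq ones. For Mt1 it is 94179082, inside the window, and for Mt2 94172664, past the window's end. Bases after the windows were not searched, so the counts do not give the number of elements in either promoter and do not rank the 2 genes. Of 32851 windows of the same length in the RefSeq table, 21.4% held at least 1 match and 1.26% at least 3. A match describes letters in this window and shows no binding.

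Further genes had every OIR library above both NORM libraries without passing the test. The macrophage elastase MMP12 had a level of 29.5, 2.41 and 0.952 in the OIR libraries, against 0 and 0 in NORM, with a limma adjusted p of 0.258. Its summed UMIs were at least 14.7-fold higher, against a floor of 3 UMIs over the NORM group, but came from 6 cells. The galectin LGALS3, a glycan-binding protein of phagocytes, had 8.64, 29.2 and 2.24 in OIR, against 1.18 and 1.34 in NORM (limma adjusted p = 0.850). It was detected in 10 of 15 cells of the second P14 OIR library, against 2 of 15 cells of the P14 NORM library. The LIM-domain gene CRIP1 had 0.854, 8.0 and 9.81 in OIR and 0.247 and 0 in NORM (limma adjusted p = 0.258). The growth factor IGF1 had 5.35, 5.57 and 2.67 in OIR, against 0.632 and 0.472 in NORM (limma adjusted p = 0.943).

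**Figure D3:**
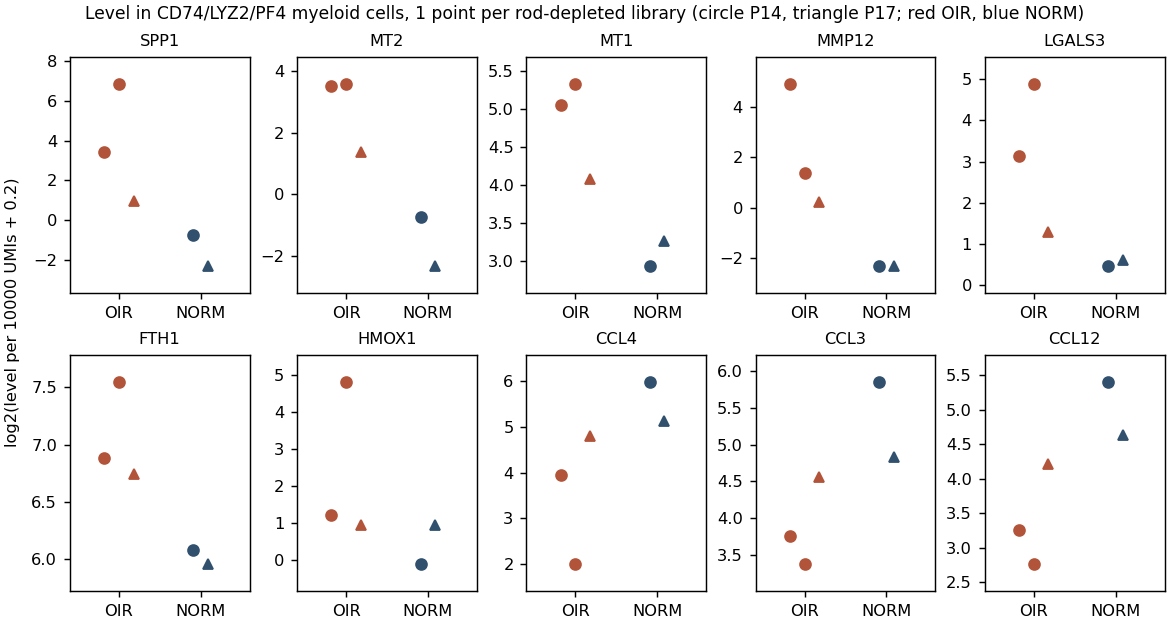
Level of 10 genes in the CD74/LYZ2/PF4 cells as log2(level per 10000 UMIs + 0.2), 1 point per rod-depleted library, with OIR (red) left of NORM (blue), circles for P14 and triangles for P17; each panel has its own scale. SPP1 and MT2 passed the test, and the other 8 genes did not; of these, HMOX1 overlaps between the groups, and CCL4, CCL3 and CCL12 lie lower in all OIR libraries.

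The inflammatory CC chemokines CCL4, CCL3 and CCL12 lay lower in all 3 OIR libraries than in both NORM libraries, though none passed. CCL4 had a level of 15.3, 3.82 and 27.8 in OIR, against 62.9 and 34.6 in NORM, with a log2 difference of -1.85 ± 0.52 (SE; limma adjusted p = 0.538). CCL3 had 13.4, 10.2 and 23.4 in OIR, against 57.5 and 28.1 in NORM (limma adjusted p = 0.943). CCL12, a monocyte chemoattractant, had 9.38, 6.61 and 18.3 in OIR, against 42.2 and 24.7 in NORM (limma adjusted p = 0.850). CCL2, named after its values were seen, overlapped between the groups, at 0.545, 4.52 and 15.6 in OIR, against 25.3 and 4.58 in NORM (limma adjusted p = 0.943). CCL7, named in the same way, had 4.36, 7.68 and 16.8 in OIR, against 18.01 and 0 in NORM, and overlapped too. In the other myeloid cells CCL4 was at 30.9, 19.96 and 25.6 in OIR and 47.9 and 15.3 in NORM, where the groups overlapped. The difference of the CCL4 effects between the 2 kinds of cells was -1.63 ± 0.40 (limma adjusted p = 0.169).

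The gene lists are described by their counts, beside a median log2 difference of 0.06 over all genes tested. In the lipid-handling phagocyte list, which holds SPP1, 14 of 18 genes were tested and 1 passed; the median was 1.14, and 8 had every OIR library above NORM, against the 13% of all genes. In the hypoxia list, 15 of 20 genes were tested, 0 passed, the median was 1.39 and 8 had every OIR library above NORM. Its lactate transporter SLC16A3 had a level of 1.95, 2.80 and 2.13 in OIR, against 0 and 0 in NORM (limma adjusted p = 0.850), and the lipid-droplet gene HILPDA had 6.11, 11.5 and 0.238 in OIR, against 0.409 and 0 in NORM (limma adjusted p = 0.943). VEGFA, the vessel growth factor, had 0.285, 1.44 and 0.579 in OIR, against 0.285 and 1.20 in NORM, where the groups overlapped. In the glycolysis list, which shares genes with the hypoxia list, 14 of 16 genes were tested, 0 passed, the median was 1.22 and 6 had every OIR library above NORM. The aldolase ALDOA had 7.17, 15.4 and 8.28 in OIR, against 1.99 and 5.52 in NORM (limma adjusted p = 0.943). ALDOA was also detected in 71.7% of cells with no myeloid gene, and the summed rod list ranged from 0.886 to 24.0 in OIR and 4.96 to 9.97 in NORM cells of the set.

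Other lists had medians below that of all genes. In the inflammatory cytokine list 13 of 16 genes were tested, 0 passed, the median was -0.78 and 4 had every OIR library below NORM, against the 11.7% of all genes. In the interferon list 8 of 12 were tested, 0 passed, the median was -0.998 and 4 had every OIR library below NORM. Its summed level was 17.6 to 26.7 in OIR, against 31.8 to 36.9 in NORM. In the MHC class I list all 6 genes were tested, 0 passed and the median was -0.67. In the microglial list all 11 genes were tested, 0 passed and the median was -0.31, with SIGLECH at 5.91, 1.77 and 1.75 in OIR, against 6.54 and 15.2 in NORM (limma adjusted p = 0.943). The summed microglial list was 69.5 to 90.8 in OIR and 107.1 to 107.5 in NORM. In the border-macrophage list 9 of 12 genes were tested, 0 passed and the median was -0.33. Of 10 monocyte genes only ITGAL could be tested. The summed level of the list was 1.36 to 12.4 in OIR, against 0 in both NORM libraries. These NORM libraries held 25 cells of the set with 36283 UMIs, against 58 cells with 106042 UMIs in OIR. In the other myeloid cells of the same libraries the order was the reverse, at 1.82 to 4.02 in OIR and 7.05 to 8.07 in NORM. Lists of other cell types also lay apart between the groups in the set. The summed Müller list was 5.85 to 7.48 in OIR and 9.07 to 16.9 in NORM, the amacrine list 0 to 1.16 in OIR and 1.61 to 2.17 in NORM, and the pericyte list 1.93 to 6.10 in OIR and 0 to 0.915 in NORM. The part of these lists in the other results was not tested, beyond leaving out the cells with at least 3 neuron or Müller genes.

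The remaining lists also had no gene past the threshold. The angiogenic and matrix list had 7 of 14 genes tested and a median of 1.53, with 3 genes higher in every OIR library, among them MMP12. The complement list had 7 of 10 tested and a median of 0.57; its properdin gene CFP had a level of 0.545, 2.82 and 2.92 in OIR, against 0.211 and 0 in NORM (limma adjusted p = 0.943). The haem, iron and antioxidant list had 11 of 16 tested and a median of 0.43. The scavenger and lysosome list had 10 of 12 tested and a median of 0.24, the proliferation list 8 of 10 and 0.21, the immediate-early list all 15 and -0.16, and the class II and dendritic list 5 of 11 and 0.37. The repair list had 3 of 11 tested, with a median of 0.59.

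**Figure D4:**
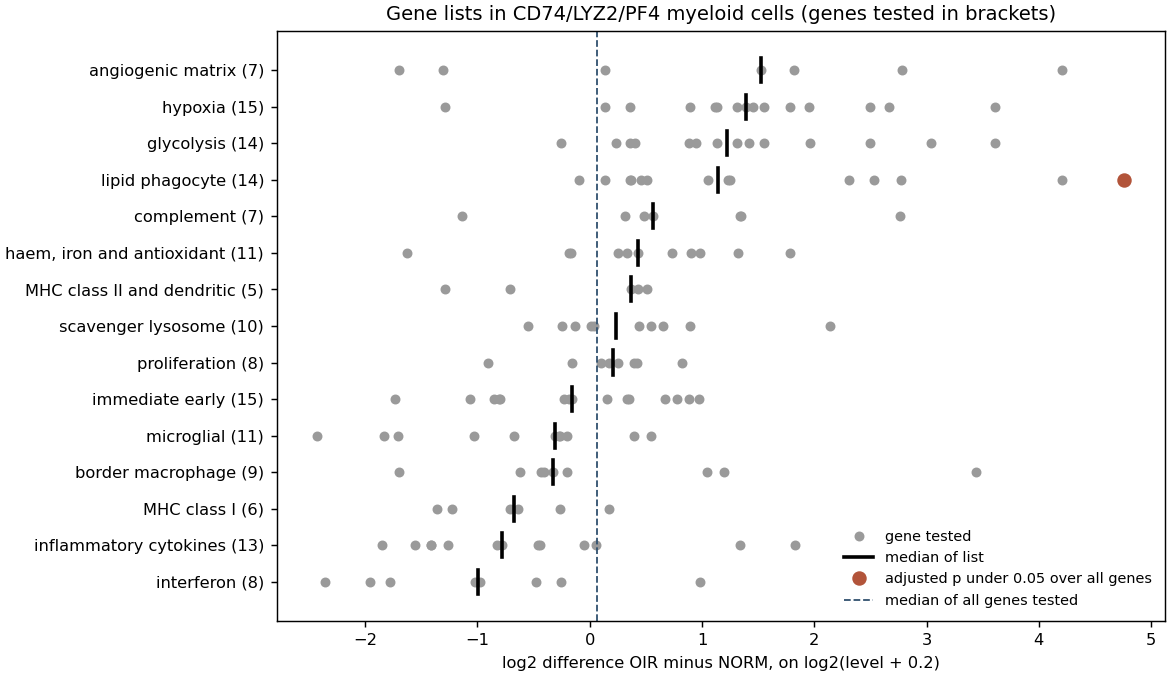
Log2 difference OIR minus NORM of each tested gene (grey; red where adjusted p was under 0.05) in lists with at least 5 tested genes, with the list's median as a black bar and the median of all genes as a dashed line. Only SPP1 is red, and the medians run from -0.998 in the interferon list to 1.53 in the angiogenic and matrix list.

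The haem-oxygenase gene HMOX1, which degrades haem, was compared with the other myeloid cells of the same libraries. In the set its level was 2.15, 28.0 and 1.74 in OIR, against 0.740 and 1.74 in NORM, and the groups overlapped (log2 difference 1.78 ± 0.85, limma adjusted p = 0.943). In the other myeloid cells it was 9.59, 30.0 and 23.1 in OIR, against 1.51 and 1.27 in NORM, where it rose by 3.61 ± 0.41 on the log2 scale (limma adjusted p = 3.43e-15). A p-value this small rests on variance borrowed from other genes, as the 5 libraries leave 2 residual degrees of freedom. Over the other myeloid cells 12 of 6581 genes passed (0.182%), 10 higher (0.152%) and 2 lower (0.0304%), and 5.12% had an unadjusted limma p under 0.05. The filter was the same, so genes at 0 in all OIR libraries were not tested there either. The difference between the 2 HMOX1 effects was -1.83 ± 0.83 and did not pass (limma adjusted p = 0.995). FTH1, the ferritin heavy chain, had 118, 187 and 107 in OIR, against 67.5 and 62.1 in NORM cells of the set (limma adjusted p = 0.943).

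Over 6546 genes tested for a difference between the OIR effects, 1 passed, or 0.0153%, and 242 (3.7%) had an unadjusted limma p under 0.05. This was APOE, with a difference of -0.59 ± 0.11 (SE; limma adjusted p = 0.000383). In the set APOE had a level of 429, 211 and 487 in OIR, against 569 and 243 in NORM. In the other myeloid cells it had 229, 245 and 240 in OIR, against 351 and 63.8 in NORM. At P14 the OIR libraries went opposite ways. The set lay above the other myeloid cells in the first (429 against 229) and below them in the second (211 against 245). The SE of 0.11 is limma's moderated value, which draws on genes of similar level and does not show this scatter. In both kinds of cells the OIR and NORM libraries overlapped, and APOE did not pass in either. The difference no longer passed without the second P14 OIR library (-0.35), without the P17 OIR library (-0.35), without the P17 NORM library (-0.35) or without cells carrying at least 3 neuron or Müller genes (-0.08).

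Between ages, 2 of 4693 genes (0.0426%) fell at P17, the chemokine CXCL10 and the atypical chemokine receptor CCRL2, and 0 rose. An unadjusted limma p under 0.05 was reached by 104 genes (2.22%). Genes had to be above 0 in at least 3 of the 5 libraries, of which 3 were P14 and 2 P17. A gene seen only at P17 could therefore not be tested, while CXCL10, at 0 in both P17 libraries, entered through P14 alone. The counts of fallen and risen genes and the CXCL10 p-value depend in part on this filter. CXCL10, an interferon-induced chemokine at chr5:92346638-92348889 on the minus strand of GRCm38, had a level of 0 in both the OIR and the NORM library at P17. At P14 it had 5.14 and 5.69 in OIR and 5.77 in NORM. The log2 difference P17 minus P14 was -4.85 ± 0.95 (SE; limma adjusted p = 0.0223). Summed UMIs were 0 at P17 and 44 at P14, at least 16.4-fold lower against a floor of 3 UMIs over the P17 group. The 44 UMIs came from 7 cells, 1, 3 and 3 in the P14 libraries. These were all the cells of the set with CXCL10, so no whole-retina cell of the set had it at either age. Without the P17 OIR library the log2 difference was -4.90 and did not pass.

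CCRL2, at chr9:111054486-111057519 on the minus strand of GRCm38, had a level of 1.92 in the OIR library and 0.472 in the NORM library at P17. At P14 it had 8.05 and 13.9 in OIR and 15.7 in NORM, so the ages did not overlap. The log2 difference was -3.30 ± 0.67 (SE; limma adjusted p = 0.0223), and the ratio of summed UMIs was 0.153, with a counting interval of 0.0821 to 0.266. It was detected in 5 of 32 and 1 of 10 cells at P17, against 6 of 11, 4 of 15 and 10 of 15 cells at P14. Without either NORM library the log2 difference was -2.35 and did not pass.

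The Cxcl10 promoter is shown because the gene is induced by interferon and by NF-kB. The 250 bases before the RefSeq gene start (GRCm38.p6) lie at chr5:92348890-92349139 and are given on the minus strand, 5′ to 3′. Capitals mark matches on either strand to an interferon-response core (GAAA, any 2 bases, GAAA) and to an NF-kB core (GGGA, any 2 bases, T, any base, CC).
Cxcl10: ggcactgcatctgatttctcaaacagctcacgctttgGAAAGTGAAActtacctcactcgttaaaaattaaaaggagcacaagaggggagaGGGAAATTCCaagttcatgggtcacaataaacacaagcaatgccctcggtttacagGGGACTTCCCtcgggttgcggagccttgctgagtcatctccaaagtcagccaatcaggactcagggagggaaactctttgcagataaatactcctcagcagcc
The interferon-response core begins 213 bases before the start, and the NF-kB cores begin 159 and 103 bases before it. Of the 32851 windows, 2.98% held the interferon-response core and 3.33% the NF-kB core.

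Class II genes lay higher in both P17 libraries. CD74, which chose the members and therefore carries no test, had a level of 72.0 in the OIR library and 97.4 in the NORM library at P17, against 42.6 and 26.6 in OIR and 19.7 in NORM at P14. H2-AB1 had 22.3 in OIR and 17.6 in NORM at P17, against 6.19 and 10.5 in OIR and 5.65 in NORM at P14, and did not pass (limma adjusted p = 0.995). The log2 difference of H2-AB1 turned to -0.65 when libraries with 5 to 9 cells were added and to -0.55 among the cells with PF4, MRC1 or F13A1. NFKBIA, an inhibitor of NF-kB, had 19.2 in OIR and 0.472 in NORM at P17, against 11.7 and 20.2 in OIR and 38.3 in NORM at P14 (limma adjusted p = 0.995). Its low level was in the P17 NORM library alone.

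**Figure D5:**
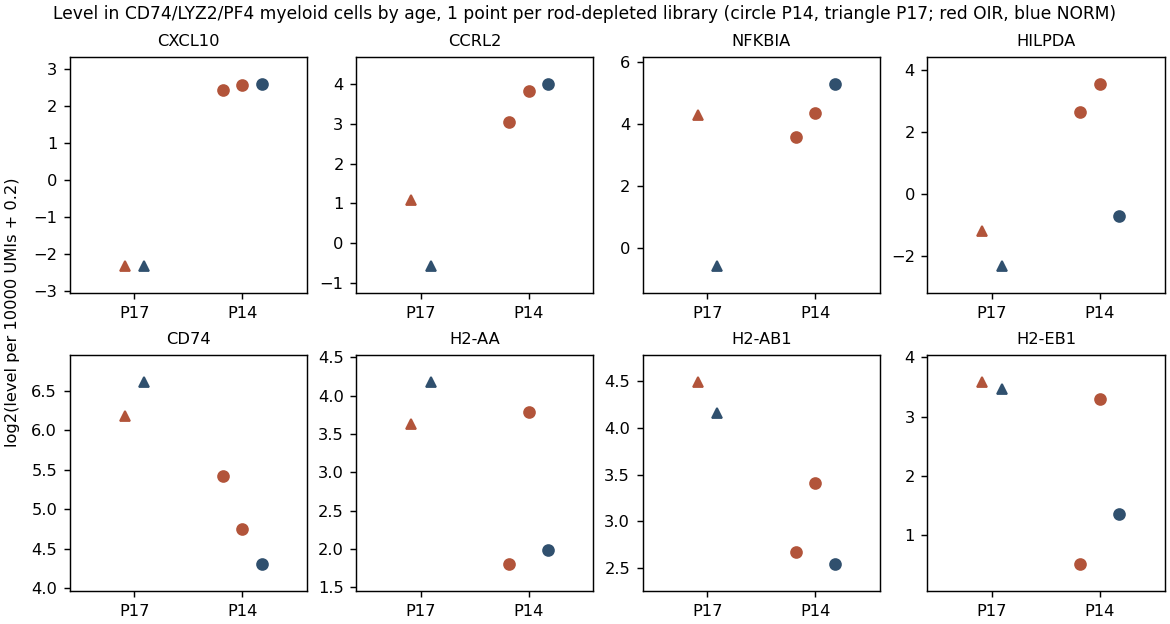
Level of 8 genes in the CD74/LYZ2/PF4 cells as log2(level per 10000 UMIs + 0.2), 1 point per rod-depleted library, with P17 left of P14, OIR in red and NORM in blue; each panel has its own scale. CXCL10 and CCRL2 passed the test and lie lower in both P17 libraries, and NFKBIA, HILPDA, H2-AB1 and H2-EB1 did not pass; CD74 and H2-AA belong to the rule and carry no test. CD74 and H2-AB1 lie higher in both P17 libraries.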

How the data were processed

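The authors deposited 1 table of 21408 genes with natural log values per cell, ln(1 + UMI / cell total × 10000): 100% of non-zero values are within 0.05 of a whole UMI once transformed back. STAR 2.4.0, bcl2fastq and the build mm10 or GRCm38 were used, per the submitters' processing notes; neither the annotation nor a doublet step is named in the sources used here. The 5799 further columns, in 7 sets outside the 12 libraries, stayed out.

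Cells with at least 200 genes were kept, and no doublet caller was run. Mean normalised values per library with at least 10 members entered limma 3.58.1 (R 4.3.3), moderated and with trend, on the scale log2(value + 0.2). This scale understates changes of low genes. The terms were oxygen and age. Genes were tested with a mean of at least 0.2 over these libraries and a value above 0 in at least 3 of them. Benjamini-Hochberg adjustment was over all genes tested, with a threshold of 0.05. The fraction term was dropped because all 5 libraries were rod-depleted. Tested on simulated data of these 5 libraries, 87 of 200 genes changed 8-fold and 49 of 200 changed 4-fold were recovered, with 0 false calls. These figures describe the simulated data only. The changed genes were drawn from those with a mean level of at least 1, which 1770 of the 4693 genes tested reached. Recovery of lower genes was not tested. In the real libraries MT2 rested on few cells, and SPP1 differed widely between OIR libraries. Whether the recovery and the absence of false calls hold for genes that scatter in this way was not tested. Shares were compared by exact permutation. Gene positions came from GENCODE M21. Named genes were rule genes, genes past the threshold, those of smallest p per comparison and list, and the highest levels. The members and lists were chosen with earlier results of these data known.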

Additional observations from a re-analysis of the deposited data

Results flagged for a closer look

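The share of CD74/LYZ2/PF4 cells in the rod-depleted OIR library at P17, 1.65%, stood apart from the other 7 OIR libraries, whose shares ran from 0.122% to 0.829%. Chance sets apart about 1 in 20 such groups, and the fractions are mixed in this one. The OIR effect on APOE differed between the CD74/LYZ2/PF4 cells and the other myeloid cells by -0.59 ± 0.11 (SE) on the log2 scale, by limma's test of the difference itself (adjusted p = 0.000383; range over the alternatives 2.52e-15 to 0.999). It passed in 8 of 15 alternatives. The SE and p-value draw on the variance of genes of similar level, and APOE's own values went opposite ways in the P14 OIR libraries.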

How the results depend on the processing

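Few cells limit every comparison: 83 cells in 5 libraries, with 2 NORM libraries. No paired analysis was possible because the groups compared share fewer than 2 replicate numbers. A minimum of 20 members left 1 library and could not be fitted.

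The count of genes that passed between OIR and NORM, 2, was 1 with at least 5 members per library and 1 on summed UMIs. It was 0 without cells carrying neuron or Müller genes, 0 among cells with PF4, MRC1 or F13A1 and 0 among those without (the last chosen after seeing the data), and 7 with no age term. Leaving out 1 library gave 0 to 7. SPP1 passed in 12 of 17 alternatives (adjusted p 1.19e-09 to 0.851) and MT2 in 8 of 16 (0.000488 to 0.851). Between ages the count of 2 was 1 with at least 5 members, 1 on summed UMIs, 1 without neuron-gene cells, 0 in cells with PF4, MRC1 or F13A1 and 0 in those without, and 1 to 4 with 1 library left out. CXCL10 passed in 7 of 10 alternatives (0.00108 to 0.971) and CCRL2 in 9 of 15 (0.000207 to 0.9997). A gene under the filter on low values was not tested in that alternative, so CXCL10 has fewer alternatives than CCRL2, and MT2 fewer than SPP1. For the difference of effects the count of 1 was 2 with a pseudocount of 0.05, 0 with no filter, 3 on summed UMIs, 0 in cells without PF4, MRC1 and F13A1, and 0 to 5 with 1 library left out.

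Directions turned for LPL between OIR and NORM without the P14 NORM library (-0.22), with up to 4.60 without another library. By age they turned with at least 5 members for CD74 (-0.40), H2-AB1 (-0.65), H2-EB1 (-0.70), H2-AA (-1.09) and RPL39 (0.26), among cells with PF4, MRC1 or F13A1 for CD74 (-0.37) and H2-AB1 (-0.55), and without either NORM library for NFKBIA (0.32), with down to -5.84 without another library. CD74 and H2-AA belong to the rule, so their values are a description. The CXCL2 difference of effects was 0.44 in cells without PF4, MRC1 and F13A1. The cause was not tested.

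The share difference between OIR and NORM was -0.0197 percentage points for cells with PF4, MRC1 or F13A1, and ran from -0.0591 to 0.222 with 1 library left out. Between fractions it was 0.332 for cells with PF4, MRC1 or F13A1 (exact p = 0.05), -2.32 as a share of myeloid cells, and 0.438 to 0.750 with 1 library left out.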
